A study of Mus musculus with 4 samples.

Results

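Processed pseudogenes expressed in microglia were set beside the genes they were copied from. A member was a gene that the deposited tables annotate as a processed pseudogene and that had at least 50 counts in 2 or more of the 4 libraries. This rule kept 159 of the 1412 processed pseudogenes found in any table (11.3%), among 20308 genes in all. The members were chosen by their counts, so their levels are a description. Their difference between genotypes was not part of the rule, except for 11 members that reached 50 counts in the libraries of 1 genotype only and therefore had to differ.

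RNA had been taken from mouse microglia, the resident macrophages of the brain, at postnatal day 11, in a series on the receptor PD-1 and on microglia in the pruning of brain vessels. One group was 2 libraries of genotype Pd1fl/fl, with the PD-1 gene flanked by recombination sites, numbered replicates 1 and 2. The other was 2 libraries labelled Pd1cKO-Cx3, a conditional knockout numbered replicates 2 and 3. The labels do not spell out "Cx3", whether the controls carried it, or whether the replicates came from different mice. The p-values below therefore speak of the variation among these 4 libraries, which may be technical between the libraries labelled Pd1cKO-Cx3.

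The libraries held 14258420 to 15908954 counts. The targeted gene Pdcd1 went against the labels: the controls held 0 and 43 counts and the libraries labelled Pd1cKO-Cx3 held 179 and 154. Every direction below follows those labels. For Xist, the X-inactivation RNA, 13374 counts came from Pd1fl/fl replicate 1 and 0 from each of the other 3 libraries. The 2 controls were therefore not repeats of 1 RNA sample, and their spread includes this difference. All 8 microglial markers were measured, with a summed level of 58472 to 60053 CPM (counts scaled to a library total of 1000000) in Pd1fl/fl and 43980 to 46533 CPM in the other group. Summed markers of mural cells were 27.1 to 61.3 CPM against 120 to 145 CPM, with Notch3 and Kcnj8 at 0 in Pd1fl/fl. Those of border-associated macrophages were 422 to 510 CPM against 618 to 650 CPM. Those of endothelium were 61.1 to 83.8 CPM against 95.4 to 119 CPM. Without overlap, 5 of 6 genes were higher for border-associated macrophages, 4 of 6 for endothelium and 3 of 6 for mural cells. For microglia, 4 of 8 were lower. Over all genes tested, 21.3% were higher and 18.8% lower. Summed markers of neurons, astrocytes and the oligodendrocyte lineage overlapped between the groups. Lymphocyte markers summed to 379 to 389 CPM against 359 to 372 CPM. The mitochondrial share was 1.23% and 1.02% in the controls, against 1.48% and 1.601% in the other group. The part of these cell types and of the mitochondrial share in the results below was not tested.

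A processed pseudogene arises when the mRNA of a gene is reverse transcribed and inserted elsewhere in the genome. It lacks the introns of its parent gene, often carries a remnant of the poly(A) tail, and depends on the sequence around the insertion for transcription. Genes with abundant germline mRNA, such as those for ribosomal proteins and glycolytic enzymes, have left many copies in mammalian genomes. A young copy can be nearly identical to its parent, and a short read from either can then match both.

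The closeness of copies and parents is shown first for the family that holds the 2 members with the smallest p in the comparison of genotypes. The following 120 bases lie in the coding sequence of Rps3a1, a protein of the small ribosomal subunit, from coding base 415 to 534, and in its 3 member copies. The stretch was chosen as the gap-free one in which all 3 copies differ from the parent with the most differing bases. Capitals mark the bases that differ from the parent. Sequences are from GENCODE M21 on GRCm38, written 5′ to 3′ on the strand of the gene.
Rps3a1 (chr3:86139069-86139188, minus strand): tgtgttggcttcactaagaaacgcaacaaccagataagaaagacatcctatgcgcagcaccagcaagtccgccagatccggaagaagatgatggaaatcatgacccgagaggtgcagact
Rps3a2 (chr14:88123275-88123394, minus strand): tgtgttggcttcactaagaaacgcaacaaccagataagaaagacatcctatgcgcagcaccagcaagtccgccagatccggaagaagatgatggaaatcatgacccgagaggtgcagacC
Rps3a3 (chr13:108671017-108671136, plus strand): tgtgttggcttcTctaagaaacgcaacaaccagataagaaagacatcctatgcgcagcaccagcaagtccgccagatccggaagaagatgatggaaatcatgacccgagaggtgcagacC
Gm7600 (chr8:11683720-11683839, minus strand): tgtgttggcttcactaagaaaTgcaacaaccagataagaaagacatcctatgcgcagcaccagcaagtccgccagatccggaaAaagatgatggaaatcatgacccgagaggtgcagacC
Over the whole coding sequence of 795 bases, Rps3a2 differed from Rps3a1 at 4 of 792 aligned bases, Rps3a3 at 9 of 795 and Gm7600 at 10 of 785. The copies differed from each other by 9 to 15 bases.

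The copies of Gapdh, the glycolytic enzyme glyceraldehyde-3-phosphate dehydrogenase, are shown because their counts exceeded those of the parent. Over 120 bases of the coding sequence, Gm7336 had no difference and Gm5559 had 1. The parent stretch spans an intron, which its coordinates include.
Gapdh (chr6:125162977-125163194, minus strand): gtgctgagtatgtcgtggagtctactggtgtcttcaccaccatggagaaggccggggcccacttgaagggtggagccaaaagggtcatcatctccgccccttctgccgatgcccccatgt
Gm7336 (chr7:51746962-51747081, plus strand): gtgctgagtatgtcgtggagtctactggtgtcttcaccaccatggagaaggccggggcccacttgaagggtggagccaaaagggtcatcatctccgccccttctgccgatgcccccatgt
Gm5559 (chr5:95861979-95862098, plus strand): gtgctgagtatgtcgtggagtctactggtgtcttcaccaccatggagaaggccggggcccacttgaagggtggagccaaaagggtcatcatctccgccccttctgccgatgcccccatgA
All 1002 coding bases of Gapdh were the same in Gm7336, and 1 differed in Gm5559.

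Oaz2-ps, a copy of the antizyme gene Oaz2 whose product inhibits ornithine decarboxylase, is shown as a copy less like its parent over the aligned bases, with 98.5% identity against 98.7% for Gm7600. In the BLAST search described below, where gaps count against identity, Oaz2-ps stood at 93.6% and Gm7600 at 98.2%. Outside gaps, Oaz2-ps differed at 8 of 537 aligned bases, of which 4 lie in these 90 bases.
Oaz2 (chr9:65687829-65687918, plus strand): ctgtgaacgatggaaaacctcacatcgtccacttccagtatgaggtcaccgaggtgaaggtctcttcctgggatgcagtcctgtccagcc
Oaz2-ps (chr3:135526233-135526322, minus strand): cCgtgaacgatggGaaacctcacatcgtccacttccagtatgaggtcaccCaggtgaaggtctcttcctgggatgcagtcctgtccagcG

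Most members were near-identical to a coding gene. Of the 159 members, 156 matched a protein-coding gene in a BLAST search of GENCODE M21 transcripts. Coding genes with predicted, -ps or -rs names were not searched. The search set no minimum for the part of a member covered, nor a strand, so a match alone does not make a gene the parent. AC132954.2 matched Alg3 over 111 bases only, on the opposite strand and at 81.1% identity. All 156 are kept in the counts of pairs below. Identity to the closest coding gene had a median of 99.1%, ranged from 68.4% to 100%, was 100% in 17 members and at least 99% in 82, and lay under 90% in 17. A stretch of 50 bases stands here for a short read. In the median member, 74.6% of all such stretches occurred unchanged in another annotated transcript. In 19 members every stretch did, and in 14 none did. Counts of a copy and its parent are therefore uncertain wherever stretches are shared, since the submitters' notes do not say how reads with several matches, or the strand, were handled.

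Among the 156 matched members, 69 held an open reading frame of at least 95% of the coding length of the gene taken as parent. The longest frame was 50% to 95% of it in 43 and shorter in 44. Rps3a3 kept all 795 bases and Rps3a2 792, whereas the longest frame in Gm7600 was 294 bases. The annotations did not always call a member a pseudogene. RefSeq lists 118 members as pseudogenes, 6 as transcribed pseudogenes and 3, Gm12250, Gm6749 and Rpl34-ps1, as protein coding, and 32 were not matched by symbol. Gm12250 has the RefSeq synonym Irgb10, an interferon-inducible GTPase of the immunity-related family. Its closest match among the coding genes searched was 9930111J21Rik2, at 68.4% identity with no shared stretch. The deposited tables and RefSeq thus differ on what kind of gene it is.

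Members had a mean level of 2.24 to 214.66 CPM over the 4 libraries, with a median of 6.86 CPM. Together they took 0.243% and 0.237% of all counts in the controls and 0.246% and 0.262% in the other group, so that the groups did not overlap but their nearest values almost met. They came from 20 chromosomes. A coding gene overlapped 66 of them, and 3 members overlapped an exon of another gene. The count of 50 was reached in all 4 libraries by 113 members, in exactly 3 by 23 and in exactly 2 by 23. At the edge of the rule, Gm3531 had 50, 23, 37 and 50 counts and Gm18212 had 41, 73, 0 and 52, both inside it. Gm4202 with 61, 42, 46 and 49 and Itpa-ps1 with 49, 53, 44 and 18 fell just outside. Wherever 4 values are given in a row, the controls come first (replicates 1 and 2) and the libraries labelled Pd1cKO-Cx3 follow (2 and 3).

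In the comparison of genotypes, no member passed the threshold. Across all 15097 genes tested with edgeR's quasi-likelihood test, 6 (0.0397%) had a Benjamini-Hochberg adjusted p under 0.05, and 0 of the 159 members did. The share was 0.0199% in each direction. At an unadjusted p under 0.05 there were 9 members, 5 higher and 4 lower in the libraries labelled Pd1cKO-Cx3, against 8.09% of all genes tested, 4.97% higher and 3.12% lower. Of the 5 higher, Gm7600 and Gm19040 met the count rule only through the libraries where they were high, so that 3 higher and 4 lower remain among the 148 members that met it in both genotypes. DESeq2 called 4 members, Rps3a3, Rps3a2, Gm12250 and Gm7600, among 220 of 20308 genes (1.08%). Without Gm7600, 3 of these calls remain among the 148 members that met the rule in both genotypes. Both libraries of one group lay above both of the other in 46 members that were higher and 30 that were lower, beside 21.3% and 18.8% of all genes tested. The median log2 fold change was 0.09 over the members and 0.01 over all genes.

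The 148 members that reached 50 counts in both genotypes had a median of 0.09. Without overlap, 41 (27.7%) were higher and 24 (16.2%) lower, beside 21.3% and 18.8% of all genes tested. The 11 that reached 50 counts in 1 genotype only were 5 higher and 6 lower. Among the higher were Gm7600, Gm19040, Rpsa-ps10 and AC090654.1, and the lower included AC141560.1 with 97, 78, 10 and 34 counts and Gm11805 with 105, 52, 32 and 13. A further 385 processed pseudogenes under the count rule were also tested, with a median of 0.02. The 66 members inside or over a coding gene had a median of 0.03 and summed to 890 ± 49.4 CPM (SD, n = 2) against 780 ± 30.6 CPM (SD, n = 2). The 93 others had a median of 0.11 and summed to 1507 ± 6.72 CPM (SD, n = 2) against 1764 ± 82.2 CPM (SD, n = 2). Single members weigh on these sums. Rps3a3, among the 66, went from a mean of 53.4 to 5.12 CPM, and Rps3a2, among the 93, from 89.3 to 210 CPM. The part of the location was not tested. Replicates of a member differed by a median of 1.24-fold in Pd1fl/fl and 1.22-fold in the other group, and by over 2-fold in 13 and 16 members. Counts of 0 occurred in 4 members, Gm7600, Gm13736, Gm11653 and Gm18212.

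**Figure D1:**
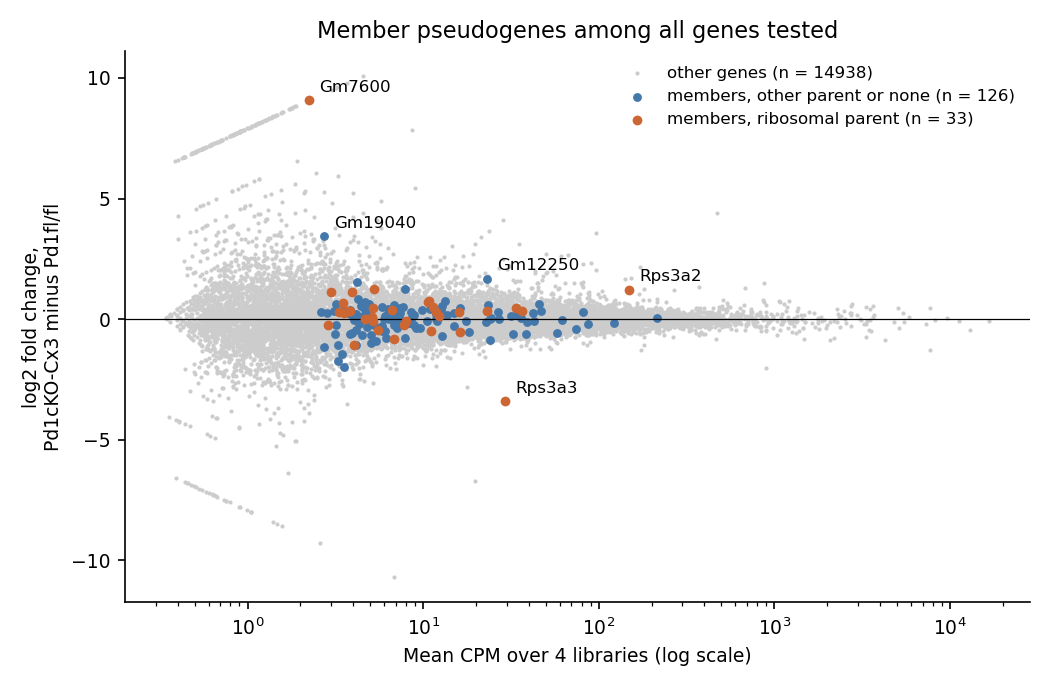
Mean CPM over the 4 libraries (log scale) against the log2 fold change, libraries labelled Pd1cKO-Cx3 minus Pd1fl/fl, for 33 members with a ribosomal protein parent (orange), 126 other members (blue) and 14938 other genes tested (grey). Rps3a3 at -3.39 and Rps3a2 at 1.23 stand apart from members of like level, and the value of Gm7600 depends on its 0 counts in Pd1fl/fl.

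The Rps3a family held the 2 members with the smallest p, Rps3a3 and Rps3a2, although Gm19040 had a larger fold change than Rps3a3 and several low-count members a larger one than Rps3a2. Rps3a3 (ENSMUSG00000059751, chromosome 13, inside the phosphodiesterase gene Pde4d) had 940, 709, 65 and 88 counts. Both controls were high and both other libraries low, at 53.4 ± 8.03 CPM (SD, n = 2) against 5.12 ± 0.794 CPM (SD, n = 2). The log2 fold change was -3.39 ± 0.28 (SE), with an adjusted p of 0.0572 in edgeR and 9.42e-17 in DESeq2. In edgeR the adjusted p was 0.00798 without a filter on low counts, where 0.158% of genes were called. It was 0.0107 with a filter of 5 CPM (0.31% called) and 0.0489 without Pd1fl/fl replicate 2 (0.128% called). Over the other alternatives it was 0.0579 to 0.263 in edgeR.

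Rps3a2 (ENSMUSG00000062611, chromosome 14) went the other way. It had 1615, 1144, 2882 and 3375 counts, with both libraries labelled Pd1cKO-Cx3 above both controls. The level was 89.3 ± 17.3 CPM (SD, n = 2) against 210 ± 11.2 CPM (SD, n = 2), and the log2 difference was 1.23 ± 0.18 (SE) with an adjusted p of 0.211 in edgeR and 1.31e-07 in DESeq2. Gm7600 (ENSMUSG00000109933, chromosome 8, inside 1700016D06Rik) had 0, 0, 66 and 67 counts. Against a floor of 3 counts per library it was at least 22.9-fold higher in the libraries labelled Pd1cKO-Cx3, with an adjusted p of 0.337 in edgeR and 0.00151 in DESeq2. It was a member only through that group.

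The parent differed less. Rps3a1 (ENSMUSG00000028081, chromosome 3) had 3436, 2685, 3179 and 3900 counts. The level was 198 ± 24.9 CPM (SD, n = 2) against 237 ± 20.4 CPM (SD, n = 2), and the log2 difference was 0.25 ± 0.14 (SE) with an adjusted p of 0.754 in edgeR. Rps3a2 thus stood at 47.0% and 42.6% of the parent's counts in the Pd1fl/fl libraries and at 90.7% and 86.5% in the others. Rps3a3 stood at 27.4% and 26.4% and at 2.04% and 2.26%. These shares differed far more between the groups than between the replicates of a group. With the name-shown copies added to it, the parent's log2 fold change was 0.40 with an adjusted p of 0.547. Summed with its copies, members or not, the family had 342 ± 50.3 CPM (SD, n = 2) against 459 ± 32.5 CPM (SD, n = 2). Of the 50-base stretches of Rps3a2, 90.2% occurred in another transcript, as did 65.1% of Rps3a3 and 58.7% of Gm7600.

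**Figure D2:**
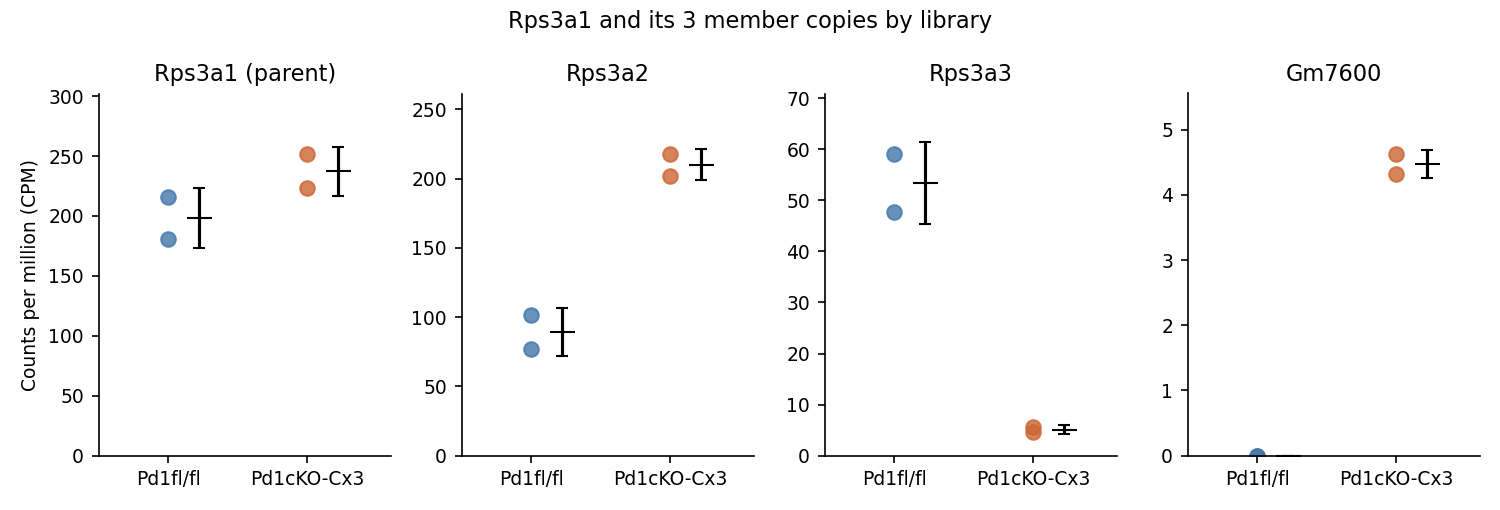
CPM of Rps3a1 and its 3 member copies in each library, with a vertical scale of its own in each panel. Points are libraries, and bars give the mean and SD of 2. The parent's groups lie near each other, Rps3a2 is higher and Rps3a3 lower in both libraries labelled Pd1cKO-Cx3, and Gm7600 is at 0 in both controls.

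Of the other members with an unadjusted p under 0.05, Gm12250, or Irgb10, had 143, 189, 410 and 644 counts. Both libraries labelled Pd1cKO-Cx3 were above both controls, at 10.9 ± 2.64 CPM (SD, n = 2) against 35.2 ± 9.07 CPM (SD, n = 2). The log2 fold change was 1.69 ± 0.33 (SE), with an adjusted p of 0.384 in edgeR and 0.00707 in DESeq2. Gm19040, a partial copy of the microtubule minus-end gene Camsap1 at 88.9% identity inside the autophagy gene Atg7, had 11, 3, 94 and 52 counts. It reached the count rule only in the libraries labelled Pd1cKO-Cx3. Gm7336, a Gapdh copy, had 641, 466, 724 and 935 counts and a log2 fold change of 0.62 with an adjusted p of 0.575 in edgeR.

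The 4 members with an unadjusted p under 0.05 that were lower were Rps3a3, Gm17907, Gm13369 and Gm12966. Gm12966, a copy of the splicing factor gene Srsf5, had 980, 1139, 660 and 725 counts and a log2 fold change of -0.58. Srsf5 itself had -0.28, and its 20420, 22766, 17132 and 17642 counts were also lower in both libraries labelled Pd1cKO-Cx3. Gm13369 is an older copy of the RNA-binding protein gene Hnrnpa3, at 89.9% identity, and lies inside Pnpla7. It had 667, 545, 382 and 387 counts and -0.61, beside -0.79 in Hnrnpa3 with 700, 718, 438 and 354 counts. Gm17907, at 73.6% identity to the mitochondrial peroxiredoxin gene Prdx3 and inside Cyfip1, had 610, 352, 227 and 284 counts and -0.87, while Prdx3 had 0.16. Adjusted p was 0.542 to 0.583 for Gm12966, Gm13369 and Gm17907 in edgeR.

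Members copied from ribosomal protein genes numbered 33, from 24 parents, with a median log2 fold change of 0.30. AC141560.1, which the deposited annotation describes as 40S ribosomal protein S2, had no coding match and is not among the 33. Its log2 fold change was -1.97. Rpsa-ps10, Gm6745 and Gm7600 met the count rule only through the libraries labelled Pd1cKO-Cx3 and had to be higher. Without these 3, the median of the remaining 30 was 0.29, with 13 (43.3%) higher and 5 (16.7%) lower without overlap, beside 21.3% and 18.8% of all genes tested. The 126 members with another parent or none had a median of 0.04, with 30 (23.8%) higher and 25 (19.8%) lower. This list still holds members that met the count rule in 1 genotype only. Gm19040 and AC090654.1 had to be higher, and 6 others had to be lower. Its counts are therefore not on like terms with those of the 30 ribosomal copies. The 3 Rps3a copies summed to 142.7 ± 25.4 CPM (SD, n = 2) in Pd1fl/fl and 219.6 ± 11.7 CPM (SD, n = 2) in the libraries labelled Pd1cKO-Cx3. The ribosomal copies outside that family summed to 263 ± 9.76 CPM (SD, n = 2) and 309 ± 1.21 CPM (SD, n = 2). In these lists, 0 members passed the edgeR threshold, and the difference between the lists was not tested.

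Of the parents of members, 125 were tested, with a median of 0.12 and 0 called by edgeR. DESeq2 called 6 of these 125, where it called 1.08% of all 20308 genes. Without overlap, 53 (42.4%) were higher and 17 (13.6%) lower, beside 21.3% and 18.8% of all genes tested. At an unadjusted p under 0.05, 13 parents were higher and 4 lower, where 4.97% and 3.12% of all genes were. A list of 154 genes from families known for many pseudogenes, mostly ribosomal proteins, glycolytic enzymes and cytoskeletal genes, had a median of 0.21. Without overlap, 84 (54.5%) were higher and 18 (11.7%) lower, beside the same 21.3% and 18.8%. DESeq2 called 9 of the 154. In edgeR, 1 of them, the tropomyosin gene Tpm3, passed the threshold, with 21471, 22515, 5453 and 4992 counts. The related gene Tpm3-rs7, which is no member, had 645, 667, 12723 and 14127 counts.

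A parent was shown by the name of 27 members. The sequence search gave the same parent for 25 of them. For Gstp-ps it gave Gstp2 and for Dynlt1-ps1 Dynlt1c. The copy had under 10% of its parent's counts in every library in 11 of the 27 pairs. In relation to the parent, the copy was higher without overlap in the libraries labelled Pd1cKO-Cx3 in 5 pairs, lower in 7 and overlapping in 15. Over all 156 pairs, named or not, it was higher in 34 and lower in 35. Among the 27 named pairs, the copy's log2 fold change was positive in 15 and negative in 12. The parent's was positive in 22 of the 25 distinct parents tested.

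**Figure D3:**
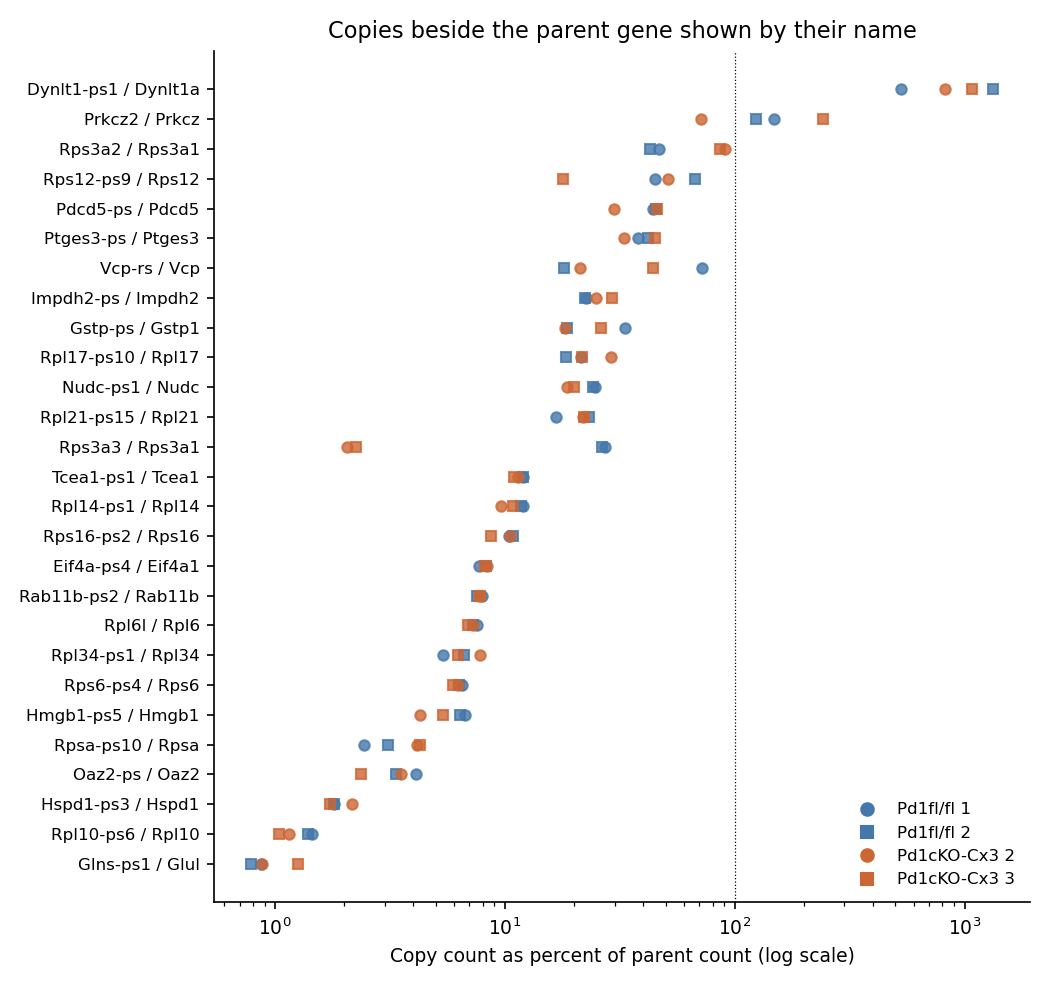
Copy counts as a percent of parent counts (log scale) in each library for the 27 pairs whose name shows the parent, ordered by their mean. Circles and squares are the replicates of each genotype, and the dotted line marks 100%. Rps3a3 is the pair with the groups farthest apart, and Vcp-rs has one Pd1fl/fl library far from the other.

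Several pairs kept a nearly constant proportion. Eif4a-ps4, a copy of the RNA helicase gene Eif4a1, had 912, 999, 819 and 1008 counts, which were 7.72%, 8.27%, 8.31% and 8.21% of the parent. Rab11b-ps2, a copy of the recycling endosome GTPase Rab11b, was at 7.58% to 7.98%. Rpl6l, a copy of Rpl6, was at 6.87% to 7.56%, and Rps6-ps4, which matches all 750 coding bases of Rps6, was at 5.97% to 6.47%. In both ribosomal pairs the copy and the parent had similar log2 fold changes, 0.35 and 0.42 for Rpl6l and Rpl6, and 0.47 and 0.54 for Rps6-ps4 and Rps6.

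Among other named pairs, Nudc-ps1, a copy of the dynein-associated gene Nudc, was at 24.6% and 24.1% in Pd1fl/fl and 18.6% and 19.96% in the others. Its own log2 fold change was -0.06 beside 0.27 in Nudc. Tcea1-ps1, from a transcription elongation factor, was at 10.9% to 12.02%. Rpsa-ps10 had 33, 43, 68 and 94 counts, and the parent Rpsa, a laminin receptor and ribosomal protein, had 1349, 1383, 1641 and 2208. Impdh2-ps, from the gene of guanine nucleotide synthesis Impdh2, was at 22.5% and 22.3% in Pd1fl/fl and 24.8% and 29.1% in the others. The lowest was Glns-ps1 at 0.788% to 1.26% of Glul, the glutamine synthetase gene, followed by Rpl10-ps6 at 1.04% to 1.44% of Rpl10.

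Other pairs varied between replicates. Vcp-rs, an X-linked copy of the AAA ATPase gene Vcp, had 3181, 858, 1252 and 2265 counts, or 71.7%, 18.03%, 21.3% and 44.0% of Vcp. The controls differed by 3.46-fold and the groups overlapped. Without Pd1fl/fl replicate 1, the only library with Xist counts, the log2 fold change went from -0.15 to 1.01. The part of Xist or of the library in the spread of Vcp-rs was not tested. With Vcp added, the pair had 7619, 5618, 7132 and 7414 counts.

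Gm13736 and its parent divided their counts differently between the replicates of each genotype. This member matches Srp9, a protein of the signal recognition particle, at 100% identity, and all of its 50-base stretches are shared. It had 147, 0, 0 and 346 counts, while Srp9 had 292, 527, 458 and 118. The 2 libraries with counts on Gm13736 were 1 of each genotype. Copy and parent together had 439, 527, 458 and 464 counts, and their highest and lowest libraries differed by 1.29-fold in CPM against 4.66-fold for Srp9 alone. In another pair the sum was not steady. Gm4735 had 40, 54, 68 and 96 counts, while Eno1b, an enolase gene at 99.8% identity to it, had 536, 1, 576 and 925, so that Pd1fl/fl replicate 2 stood apart in the parent. Their sum was 576, 55, 644 and 1021 counts. Gm8822, an X-linked copy of the Arp2/3 complex gene Actr3, had 1561, 1306, 1399 and 1009 counts. Its 44.6%, 43.1%, 42.3% and 19.2% of Actr3 set the last library apart from its replicate. In the 27 name-shown pairs, the median fold between the highest and lowest library was 1.54 for the copy, 1.37 for the parent and 1.32 for their sum.

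**Figure D4:**
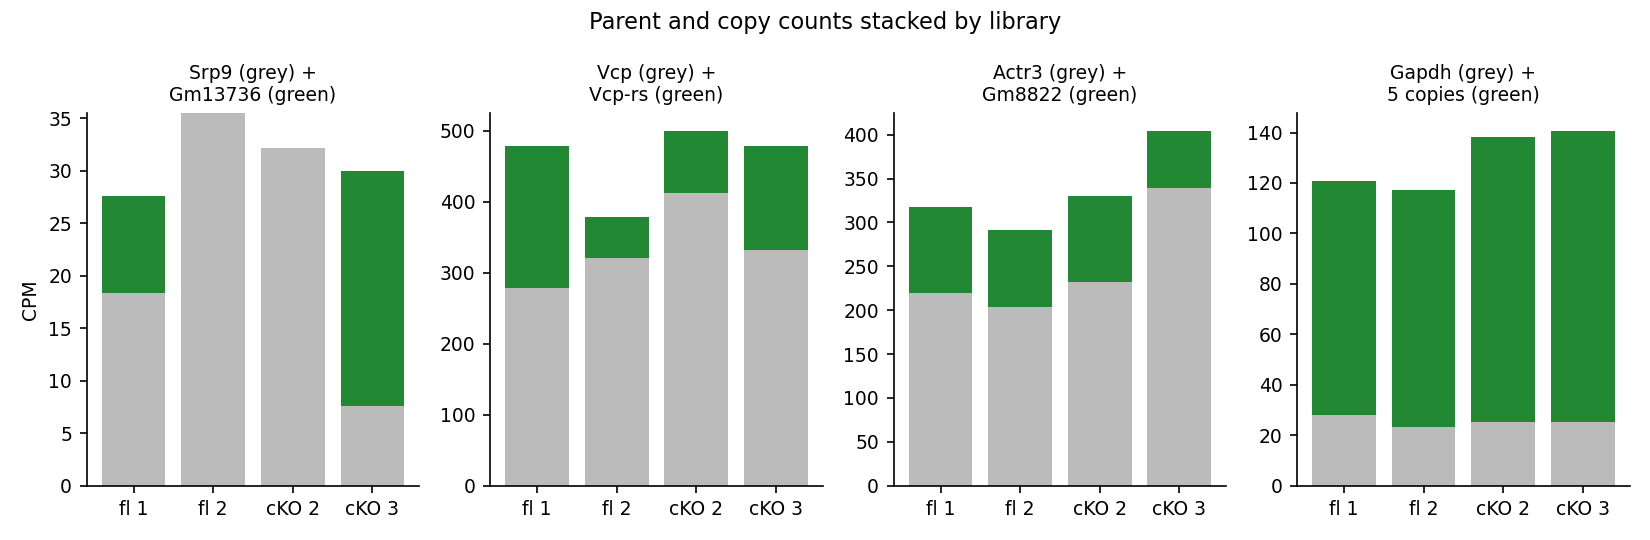
CPM of the parent (grey) and of its member copies (green), stacked, by library. Controls are marked fl and the libraries labelled Pd1cKO-Cx3 are marked cKO, each with its replicate number. The sum of Srp9 and Gm13736 stays between 27.6 and 35.5 CPM while the split differs between the replicates of each genotype.

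In 5 pairs the copy had more counts than its parent in every library, and in 140 of 156 the parent had more. The 5 were Gm7336 and Gm5559 beside Gapdh, Gm45778 beside Rpl39, Gm19427 beside Rpl38, and Dynlt1-ps1 beside Dynlt1a. Dynlt1-ps1 is 100% identical to both Dynlt1a and Dynlt1c, with every stretch shared, so the choice of parent is open. It had 53, 53, 33 and 54 of the 63, 57, 37 and 59 counts on it and Dynlt1a. Gapdh had 447, 343, 359 and 392 counts, while its 5 member copies together held 76.8%, 80.3%, 81.8% and 82.0% of the counts of copies and parent. Per kilobase of exon, Gapdh stood at 6.15 CPM, Gm7336 at 37.1 and Gm5559 at 34.8. The length used for Gapdh was 4133 bases, over the exons of all its transcripts, against 1232 and 1002 for these copies. The 3 values are therefore not on like terms. Of the 50-base stretches, 100% in Gm7336 and 94.8% in Gm5559 occurred in another transcript, so the split of reads with Gapdh is uncertain. Rpl39 had 9, 6, 24 and 24 counts and Gm45778 84, 94, 93 and 132, at 91.5% identity and with no shared stretch. Over all 156 pairs, the copy stood at a median of 9.85% of the parent's counts.

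Parents with several member copies numbered 17. Besides Gapdh, Hmgb1 and Hnrnpa3 each had 5. The copies' share of the family was 60.6% to 72.8% for Hnrnpa3 and 23.6% to 26.8% for the chromatin protein gene Hmgb1. It was 39.2% to 42.4% for the 3 copies of Rpl17. It was 4.78% to 5.38% for the 3 copies of Ppia, which encodes cyclophilin A, and 0.454% to 0.604% for the 2 copies of the elongation factor gene Eef1a1. For Rps2, Pd1fl/fl replicate 2 stood apart at 20.4%, against 4.16% to 7.15% in the other 3 libraries, and the parent had 1653 counts there against 3339, 4526 and 6702.

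**Figure D5:**
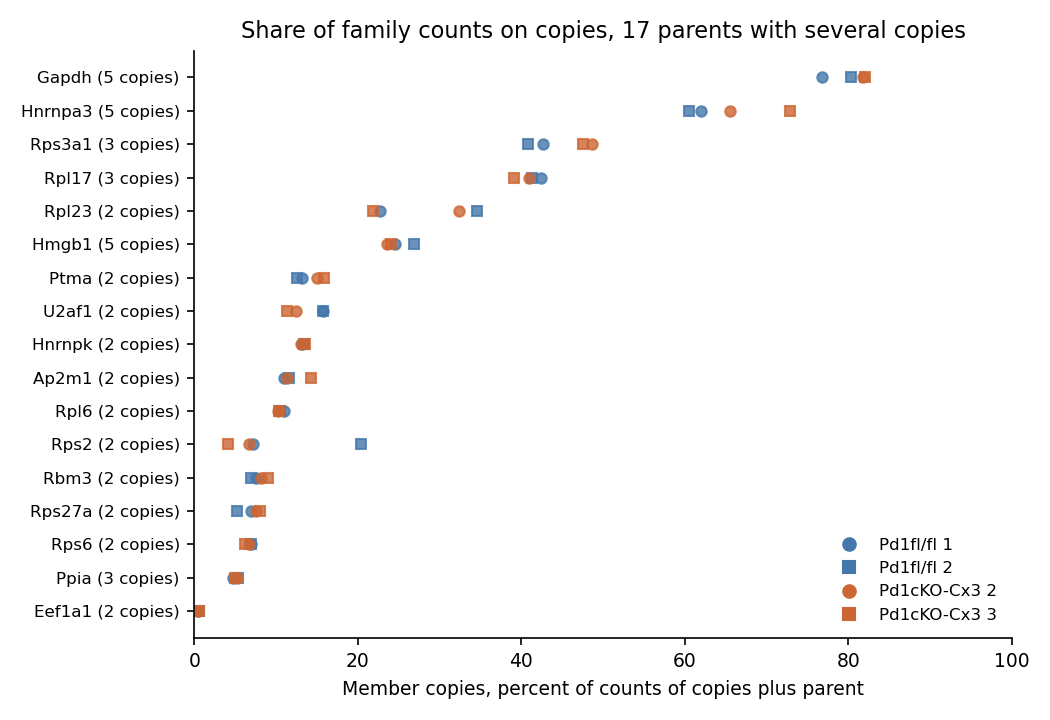
Share of the counts of copies and parent that fell on member copies, in each library, for the 17 parents with 2 or more member copies. The share runs from under 1% for Eef1a1 to 82.0% for Gapdh, and replicates lie farthest apart for Rps2 and Rpl23.

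The member with the highest level was Gm7964, a copy of the RNA-binding protein gene Hnrnpk. It had 3148, 3330, 3023 and 3478 counts, or 211 ± 18.6 CPM (SD, n = 2) against 218 ± 8.88 CPM (SD, n = 2), and stayed at 14.7% to 15.3% of Hnrnpk. Gm9800, a copy of the prothymosin gene Ptma, had 1119, 1104, 1184 and 1526 counts with a log2 fold change of 0.32 beside 0.07 in Ptma. Gm13509, a copy of the clathrin adaptor gene Ap2m1 inside Mbd5, had 574, 707, 680 and 891 counts and 0.32 beside 0.11. Gm10123, identical to Ppia over its length, had 583, 594, 581 and 795 counts and 0.26 beside 0.21. AC156274.1, inside the cytoskeletal gene Epb41l2 and with no coding match, had 994, 1578, 925 and 979 counts, so that 1 control library was high. For these 5 members the adjusted p in edgeR was 0.717 or more.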

How the data were processed

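Total RNA of 4 microglia libraries had been sequenced on an Illumina instrument, per the labels' protocols. Tools named in the submitters' processing notes, without roles or a strand setting, are HTSeq 0.6.0, TopHat2 2.0.12 and Bowtie2 2.2.3, with the build mm9. Of 20276 gene identifiers, 18668 (92.1%) and 153 of 159 members had the GRCm38 position of GENCODE M21, so coordinates are read as GRCm38.

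The authors deposited 4 tables, each pairing 1 library of each genotype. Deposited counts are raw reads per gene, per the file headers. The deposited CPM are counts scaled to a library total of 1000000, with 0.5 in place of 0. The deposited ratio, log2 fold change and p-value columns compare 2 libraries and were not used. Each library was taken once, a gene absent from its tables was given 0, counts did not conflict between tables (0 cases), and 22 symbols turned into dates were restored.

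The test between genotypes was edgeR's (version 4.0.16, R 4.3.3; TMM factors, filterByExpr, quasi-likelihood test, Benjamini-Hochberg adjustment over all genes tested). Fold changes are log2, Pd1cKO-Cx3 minus Pd1fl/fl, with DESeq2 1.42.0 as an alternative. The scripts were tested on simulated data. CPM are relative to the library total, and a floor of 3 counts per library, which covers counting error only, replaces a group at 0.

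Parents came from a member's name or from BLAST+ 2.17.0 against coding transcripts. Coding genes with predicted, -ps or -rs names were left out of that search after matches to them had been seen. Members and gene lists were chosen with earlier results of these data known. Members named were those with a parent in their name, the 12 highest, up to 10 per direction with the largest change among those without overlap and with an unadjusted p under 0.05, and the 3 on each side of the count rule, with their parents. Gm13736, Gm4735, Gm11653, AC141560.1, AC090654.1, Gm6749, the remaining families and copies above their parent, Tpm3-rs7 and Xist were named after their values were seen. Gene models of a copy with a parent may share reads, and stretches shared were counted over transcripts, not the genome.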

Additional observations from a re-analysis of the deposited data

How the results depend on the processing

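No paired analysis was possible because the groups share only replicate number 2. With 2 libraries a group, each fit without a library assumes that the lone one varies like the others. The 6 genes called in the main setting became 32 without a filter on low counts, 32 at 5 CPM in 2 libraries and 220 with DESeq2 on all 20308 genes, which also changes the filter. Leaving out a library gave 4 to 21, the highest without Pd1fl/fl replicate 2. The members called rose from 0 to 1 without a filter, 1 at 5 CPM and 4 with DESeq2, and were 0 to 1 without a library. The member called in edgeR was Rps3a3. Of the 4 in DESeq2, Gm7600 met the count rule only through the libraries labelled Pd1cKO-Cx3. The median of the members, 0.09, was 0.02 at 5 CPM and 0.01 for members at 20 counts in 2 libraries, and 0.03 to 0.13 without a library. The cause was not tested.

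Of 790 alternative values for 85 named genes, 724 kept direction and side of the threshold, 9 passed it, and 57 in 36 genes turned sign, all with an adjusted p above 0.05 in the main setting and an absolute log2 fold change there of at most 0.5. With upper-quartile factors these were 9930111J21Rik2 at -0.02, Impdh2 at -0.01 and Oaz2 at -0.02. At 5 CPM they were -0.005, -0.001 and -0.007. With copies added to the parent they were Prkcz at -0.11 and Oaz2 at -0.005. The rest turned on leaving out a library, and their log2 fold changes then ranged as follows. Members near the top or named for a parent ran from -0.78 to 1.01 for Vcp-rs, -0.15 to 0.09 for Eif4a-ps4, -0.25 to 0.11 for Nudc-ps1, -0.13 to 0.45 for Ptges3-ps, -0.007 to 0.07 for Rab11b-ps2, -0.47 to 0.25 for Pdcd5-ps, -0.02 to 0.55 for Impdh2-ps, -0.95 to 0.22 for Rps12-ps9, and -0.18 to 0.07 for Rpl10-ps6. They ran from -0.35 to 0.36 for Tcea1-ps1, -0.03 to 0.20 for Rps16-ps2, -0.75 to 0.03 for Oaz2-ps, -0.02 to 0.46 for Glns-ps1, -0.57 to 0.009 for Dynlt1-ps1, -0.05 to 0.14 for Gm7964, -0.52 to 0.08 for Gm8822, and -0.74 to 0.03 for AC156274.1. Near the count rule they ran from -1.06 to 0.44 for Gm13204, -0.27 to 0.16 for Gm4202 and -0.12 to 0.89 for Gm3531. For parents they ran from -0.04 to 0.10 for Hnrnpk, -0.17 to 0.02 for Eif4a1, -0.16 to 0.12 for Gapdh, -0.08 to 0.10 for 9930111J21Rik2, -0.004 to 0.09 for Rab11b, -0.07 to 0.32 for Rpl21, -0.04 to 0.41 for Pdcd5, -1.16 to 0.71 for Prkcz, and -0.16 to 0.18 for Impdh2. They ran from -0.11 to 0.78 for Gstp1, -0.25 to 0.47 for Tcea1, -0.007 to 0.48 for Rps16, -0.09 to 0.11 for Oaz2, -0.09 to 0.22 for Hspd1, -0.73 to 1.21 for Zfp108, and -0.61 to 0.03 for Camsap1.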
